A study of Mus musculus with 6 samples.

Results

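The 10 genes described here encode receptors of double-stranded RNA, adaptors of their signal, enzymes switched on by or modifying such RNA, and a kinase. They are Ddx58, Ifih1, Dhx58, Tlr3, Ddx60, Eif2ak2, Adar, Mavs, Traf3 and Irak1, whose product is that kinase and acts after MyD88. All 10 are called RNA-sensing genes in the figures for short. They were chosen by known role, matched by symbol, and all 10 were found among the 24982 genes of the authors' deposited table. RNA was sequenced from cumulus granulosa cells, the somatic cells that surround the oocyte, of Kun-Ming mice, an outbred stock. There were 3 Atg5-KD libraries, from cells transfected with short hairpin RNAs against Atg5, and 3 control libraries. What the control cells were transfected with, the age of the mice and whether libraries came from separate animals or cultures are not given in the sources used here, so the p-values may reflect technical spread alone.

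A single table was deposited, the authors' comparison of both groups. It gives for each gene a base mean, which is the mean over all libraries of read counts divided by a library's size factor (normalized counts), a log2 fold change with its standard error (SE), and a Wald p-value with Benjamini-Hochberg adjustment. No value per library was analysed here. Group means below are therefore estimates from the base mean and the fold change, with no SD, and whether single libraries of the groups overlapped cannot be read from them. A gene was called higher or lower at an adjusted p under 0.05. No column states the direction. Atg5-KD over control was taken from the table's name, which puts the knockdown group first. That group is labelled KO there and ko in the sample titles. Every statement below would turn round if this direction were wrong.

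In vertebrate cells RIG-I-like receptors in the cytosol and Toll-like receptor 3 in endosomes bind double-stranded RNA, of viral or other origin, and start the production of type I interferon. The cytosolic receptors signal through MAVS on the mitochondrial surface and Toll-like receptor 3 through the adaptor TRIF, and both routes lead over TRAF3 and the kinase TBK1 to interferon regulatory factors. Interferon in turn raises the transcription of many genes, most of the receptors among them, so that receptor genes are classed as interferon-stimulated genes while adaptor genes mostly are not.

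Across the table, estimated depth was 12200000 counted reads per Atg5-KD library and 17300000 per control library, rounded. The ribosomal RNA locus Rn45s took an estimated 17.9% of normalized counts in Atg5-KD and 1.17% in control. Atg5 had 397 normalized counts in Atg5-KD and 414 in control, with a log2 fold change of -0.06 ± 0.14 (SE) per the authors' deposited table (Wald adjusted p = 0.822), so as deposited the targeted transcript gave no check of the labels. With all counted reads, Rn45s included, as the common scale, every log2 fold change shifts by -0.30. Of rounded normalized totals of 16000000 in Atg5-KD and 13000000 in control, Rn45s held 2867935 and 151955. Most of this shift therefore comes from Rn45s, and a call of lower on that scale need not mean less of a transcript relative to other genes. On that scale Atg5 was called lower, at -0.36 (adjusted p = 0.0269, Wald statistics re-adjusted by Benjamini-Hochberg), as were 5735 of the 14835 tested genes. Of 12 granulosa and cumulus markers 11 passed the filter on low values, led by Gja1 and Inha, and Cyp19a1 did not, at an estimated 3.65 normalized counts in Atg5-KD and 1.04 in control. Of the 11, 5 were lower and 1 higher, with Slc38a3 at -2.19, Inhbb at -1.14, Foxl2 at -0.49, Gja1 at -0.33, Fst at -0.26 and Nr5a2 at 0.62 per the authors' deposited table, of which all but Gja1 were named after their values were seen. Leukocyte markers, which matter here because macrophages also carry these receptors, were lower in 9 of 15 tested cases and higher in 0 (0 higher at an unadjusted Wald p under 0.05 as well), and the 16 listed summed to 619 normalized counts in Atg5-KD and 2338 in control. Lyz2 supplied most of that sum, with 335 normalized counts in Atg5-KD and 1476 in control. Markers of theca and stroma were lower in 5 of 6 tested cases and higher in 0, and the 7 listed summed to 3672 normalized counts in Atg5-KD and 6873 in control. Smooth muscle and pericyte markers were lower in 4 of 5 tested cases and higher in 1, and the 6 listed summed to 5400.3 normalized counts in Atg5-KD and 11564 in control. Of 6 endothelial, 5 oocyte and 6 surface epithelial markers tested, 0 were called (0 higher and 2 lower at an unadjusted Wald p under 0.05). For comparison with all these marker counts, 10.4% of all tested genes were higher and 10.5% lower. The part of these cell types in the differences below was not tested, and in bulk RNA fewer cells of a type and less RNA per cell cannot be told apart.

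The genes that bind double-stranded RNA were higher in Atg5-KD and the shared adaptors were not. All 10 genes passed the filter on low values, a base mean of at least 3.31. Of these, 7 were higher in Atg5-KD (Ddx60, Ifih1, Ddx58, Dhx58, Eif2ak2, Tlr3 and Adar), 1 was lower (Irak1) and 2 were not called (Mavs and Traf3). Over all 14835 tested genes 20.9% were called, 10.4% higher and 10.5% lower. The median log2 fold change was 1.60 over the 10 genes and 0.004 over all tested genes. With a log2 fold change above 2, which is 4-fold, 4 of the 10 were higher (Ddx60, Ifih1, Ddx58 and Dhx58), all of them helicases, while 1.07% of all tested genes met that limit. Ordered by p-value, Ddx60 was the 4th, Ddx58 the 6th and Ifih1 the 9th of all tested genes.

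**Figure D1:**
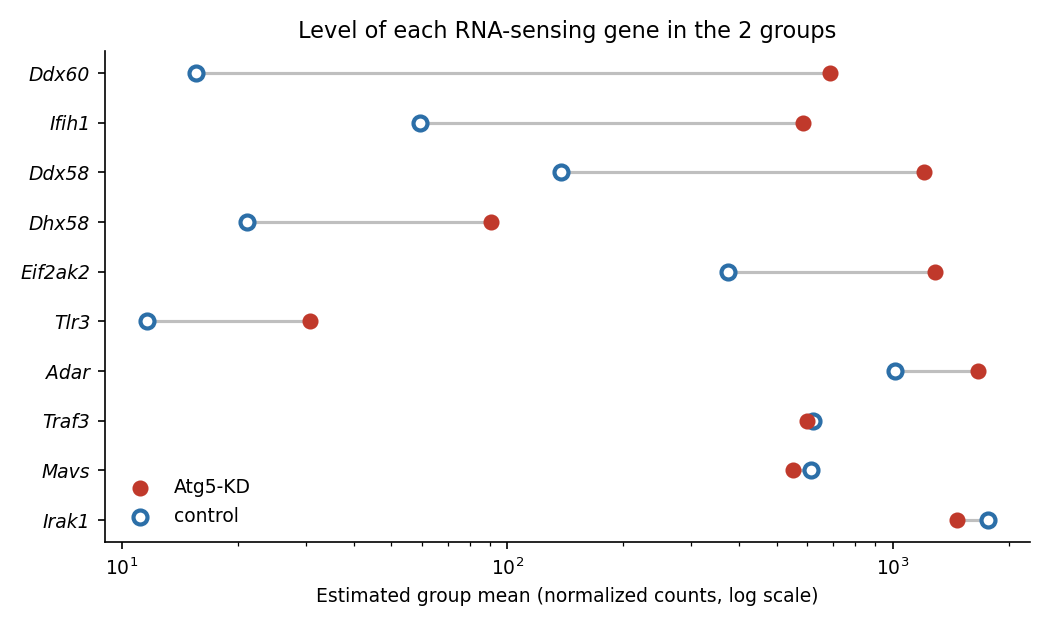
Estimated group mean of each of the 10 genes in normalized counts, on a log axis, with Atg5-KD as filled points and control as open circles. The widest gap is that of Ddx60, 689 in Atg5-KD and 15.6 in control, while the points of Traf3, Mavs and Irak1 lie close together with Atg5-KD to the left.

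The genes of the 3 RIG-I-like receptors were all higher in Atg5-KD. Ddx58 encodes RIG-I, which binds short double-stranded RNA with a triphosphate end, and lies on chromosome 4 from 40203777 to 40239825 (GRCm38.p6, used for all positions). It had an estimated 1204 normalized counts in Atg5-KD and 138 in control, and the authors' deposited table gave a log2 fold change of 3.12 ± 0.14 (SE), an 8.71-fold difference with a 95% interval from 7.17 to 10.6 (Wald adjusted p = 1.48e-102). Ifih1 encodes MDA5, the receptor of long double-stranded RNA, on chromosome 2 from 62595618 to 62646255. Its estimated level was 586 normalized counts in Atg5-KD and 59.4 in control, 9.86-fold apart with an interval from 7.84 to 12.4 (log2 fold change 3.30 ± 0.17 (SE) per the authors' deposited table, Wald adjusted p = 1.03e-81). The intervals of Ddx58 and Ifih1 overlap, so an order between their fold changes cannot be given. Dhx58 encodes LGP2, a relative without the signalling domains of the other two that tunes their activity, on chromosome 11 from 100694884 to 100704271. It was the least abundant of the 3, with 90.7 normalized counts in Atg5-KD and 21.1 in control, and its log2 fold change per the authors' deposited table was 2.10 ± 0.31 (SE; Wald adjusted p = 4.01e-10). The interval of Dhx58, 2.83-fold to 6.50-fold, lies below those of Ddx58 and Ifih1.

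Ddx60 showed the largest difference of the 10 genes. It encodes a large helicase that is induced by interferon and has been described in human cells as a partner of RIG-I-like receptors, and lies on chromosome 8 from 61928073 to 62037704. Estimated levels were 689 normalized counts in Atg5-KD and 15.6 in control, about 526 and 20.7 reads per library. The log2 fold change per the authors' deposited table was 5.46 ± 0.25 (SE), a 44.1-fold difference with an interval from 31.6 to 61.7 (Wald adjusted p = 1.22e-105). It was the 15th largest log2 fold change of all tested genes. Per length Ddx60 had 79.4 normalized counts per kilobase of exon in Atg5-KD, close to the 81.3 of Traf3, and 1.80 in control, close to the 2.22 of Tlr3.

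**Figure D2:**
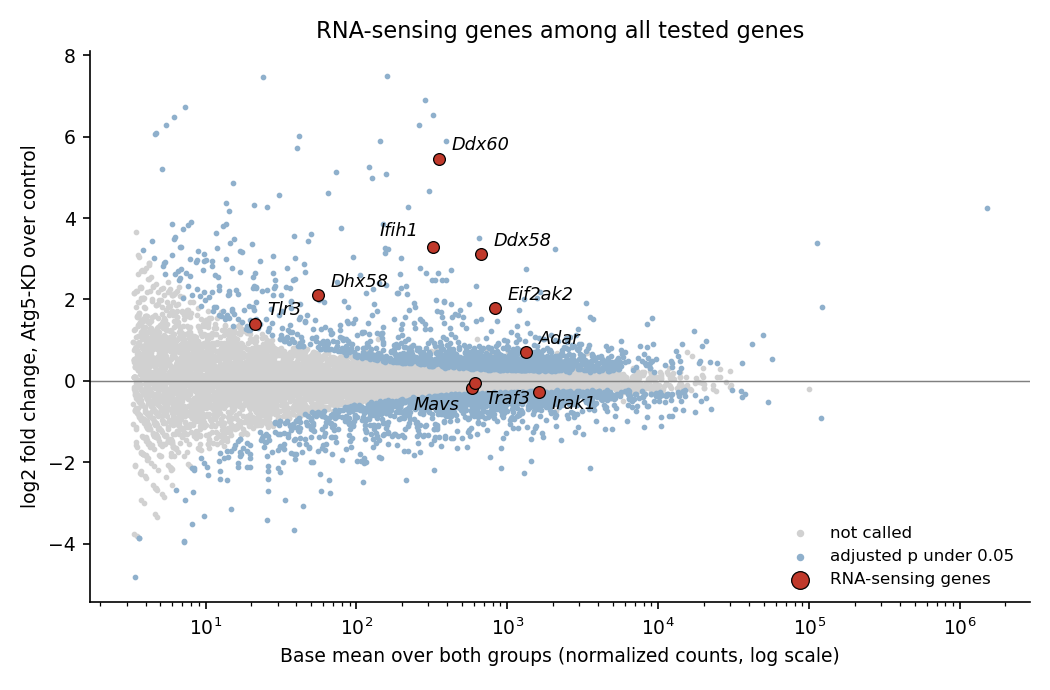
Base mean over both groups (normalized counts, log axis) against the log2 fold change of Atg5-KD over control for all 14835 tested genes, with called genes in blue, others in grey and the 10 RNA-sensing genes in red. Ddx60, Ifih1 and Ddx58 stand far above the bulk at middling abundance, and Mavs and Traf3 lie near 0.

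Because several of these genes moved together, their promoters were searched for the pattern to which interferon regulatory factors bind, a pair of GAAA repeats. Windows from 250 bases before to 50 bases after annotated transcript starts came from RefSeq (GRCm38.p6) and were present for 9 of the 10 genes, Dhx58 being the exception. Searched on both strands were GAAA, any 2 bases and GAAA (the 2-base-gap pattern), and the same with 1 base between (the 1-base-gap pattern), both chosen after the sequences were seen. The 5 windows with a match are shown, 5′ to 3′ on the strand of the gene, with matches in capitals, and the window of Mavs, which has none, is shown beside them. The windows are chr8:61927837-61928136 (plus strand) for Ddx60, chr2:62646206-62646505 (minus) for Ifih1, chr4:40239776-40240075 (minus) for Ddx58, chr17:78882523-78882822 (minus) for Eif2ak2, chr3:89730468-89730767 (plus) for the annotated start of Adar furthest downstream, and chr2:131233813-131234112 (plus) for Mavs.
Ddx60: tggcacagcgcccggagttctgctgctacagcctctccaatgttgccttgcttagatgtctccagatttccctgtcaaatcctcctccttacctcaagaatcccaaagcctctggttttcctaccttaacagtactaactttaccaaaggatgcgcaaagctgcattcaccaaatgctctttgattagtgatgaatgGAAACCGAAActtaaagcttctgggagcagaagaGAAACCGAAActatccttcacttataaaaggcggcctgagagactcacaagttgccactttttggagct
Ifih1: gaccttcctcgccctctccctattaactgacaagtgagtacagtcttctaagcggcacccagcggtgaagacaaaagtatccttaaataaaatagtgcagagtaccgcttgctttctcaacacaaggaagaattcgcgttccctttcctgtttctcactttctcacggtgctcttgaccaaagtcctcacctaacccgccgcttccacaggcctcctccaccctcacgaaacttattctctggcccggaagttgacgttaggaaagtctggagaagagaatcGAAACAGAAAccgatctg
Ddx58: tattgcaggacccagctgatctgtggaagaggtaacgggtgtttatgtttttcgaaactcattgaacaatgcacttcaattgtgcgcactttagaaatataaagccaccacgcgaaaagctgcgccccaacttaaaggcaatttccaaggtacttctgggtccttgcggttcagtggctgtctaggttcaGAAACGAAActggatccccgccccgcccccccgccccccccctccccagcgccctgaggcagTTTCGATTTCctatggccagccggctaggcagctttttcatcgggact
Eif2ak2: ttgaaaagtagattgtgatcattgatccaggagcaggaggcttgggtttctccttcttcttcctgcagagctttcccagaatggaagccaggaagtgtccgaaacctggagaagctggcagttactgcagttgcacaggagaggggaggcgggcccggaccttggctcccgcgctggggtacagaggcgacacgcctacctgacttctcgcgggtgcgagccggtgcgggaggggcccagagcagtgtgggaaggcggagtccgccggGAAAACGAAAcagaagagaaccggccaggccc
Adar, start furthest downstream: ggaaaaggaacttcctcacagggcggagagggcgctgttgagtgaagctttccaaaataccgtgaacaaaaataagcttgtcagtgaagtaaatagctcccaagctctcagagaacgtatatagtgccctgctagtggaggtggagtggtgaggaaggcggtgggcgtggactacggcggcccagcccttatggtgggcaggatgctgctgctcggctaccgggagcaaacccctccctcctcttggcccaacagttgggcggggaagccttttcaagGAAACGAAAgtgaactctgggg
Mavs: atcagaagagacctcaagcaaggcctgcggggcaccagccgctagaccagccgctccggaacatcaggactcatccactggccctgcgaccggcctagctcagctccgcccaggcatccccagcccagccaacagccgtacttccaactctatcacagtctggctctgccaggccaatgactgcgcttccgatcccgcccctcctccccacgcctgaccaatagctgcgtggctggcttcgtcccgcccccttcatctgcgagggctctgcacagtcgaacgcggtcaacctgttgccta

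The Ddx60 window holds the 2-base-gap pattern at 2 places, beginning 53 and 19 bases before the start. Ifih1, Eif2ak2 and Ddx58 hold it once each, beginning 32, 18 and 2 bases after the start, in Ddx58 on the opposite strand. Ddx58 also holds the 1-base-gap pattern from 60 bases before the start, and the Adar window shown holds that pattern from 28 bases after it. The windows of Tlr3, Mavs, Traf3 and Irak1 and the other Adar starts hold neither pattern, which says only that these letters are not in those windows. The Tlr3 window, chr8:45410331-45410630 (minus), lies inside the gene span given below. So does the most upstream Adar window, chr3:89714772-89715071 (plus). Bases around the outer 5′ end of those 2 spans were therefore not searched. At least 1 of the patterns was present for 5 of 9 genes (55.6%), for 7.27% of all 27025 genes with a window and for 6.10% of the 11465 tested genes with one. The share was 38.3% of 107 genes called higher past 4-fold and 10.4% of 1187 called higher. It was 6.68% of 1182 called lower and 5.46% of 9096 not called. Because the patterns were chosen after these windows were seen, the share of the 9 genes is no test of enrichment. The 2-base-gap pattern alone was present in 30.8% of 107 genes called higher past 4-fold, in 7.08% of 1187 called higher, in 4.23% of 1182 called lower and in 3.11% of 9096 not called. A match is a run of letters and not a measured binding site.

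**Figure D3:**
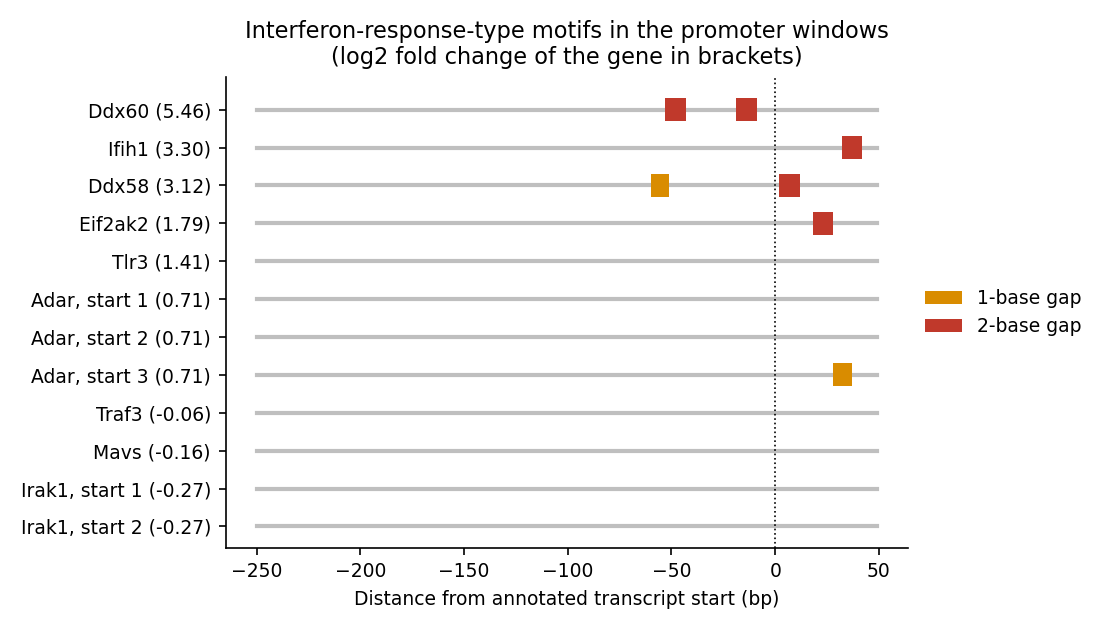
Position of each match in the promoter windows, in bases from the annotated transcript start (dotted line), with genes ordered by log2 fold change (in brackets) and colours for the 2-base and 1-base gap between the repeats. Matches lie within 60 bases of the start in Ddx60, Ifih1, Ddx58, Eif2ak2 and 1 of the Adar windows.

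Tlr3, the endosomal receptor, was higher at a very low level. Its gene on chromosome 8 from 45395665 to 45411075 had an estimated 30.7 normalized counts in Atg5-KD and 11.6 in control, about 23.4 and 15.3 reads per library. The log2 fold change per the authors' deposited table was 1.41 ± 0.45 (SE), with an interval from 1.44-fold to 4.90-fold (Wald adjusted p = 0.0126). Per kilobase of exon it stood at 5.89 normalized counts in Atg5-KD and at 2.22 in control. The call was lost at an adjusted p threshold of 0.01.

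Eif2ak2, which encodes the kinase PKR, was 3.46-fold higher. PKR is activated by binding double-stranded RNA and phosphorylates the initiation factor eIF2alpha, which lowers protein synthesis. The gene on chromosome 17 from 78850504 to 78882572 had an estimated 1290.4 normalized counts in Atg5-KD and 373 in control, and the authors' deposited table gave 1.79 ± 0.12 (SE; Wald adjusted p = 2.14e-47). The kinases that phosphorylate the same factor in response to other stresses stood at log2 fold changes of 0.01 ± 0.11 (SE) for Eif2ak1, 0.01 ± 0.12 (SE) for Eif2ak3 and -0.02 ± 0.11 (SE) for Eif2ak4 per the authors' deposited table, none of them called. Of 16 tested genes of eIF2alpha kinases, phosphatases, exchange factors and targets without Eif2ak2, 1 was higher, Ddit3 at 0.66 ± 0.15 (SE) per the authors' deposited table, and 0 were lower (3 higher and 0 lower at an unadjusted Wald p under 0.05). The higher share was 6.25%, against the 10.4% of all tested genes. Scaled to all reads 1 of this list was higher and 11 lower, and after correction for GC content and length 2 were higher and 0 lower. Counts of this and the later lists at these settings stand beside those of all tested genes. Scaled to all reads, 534 of 14835 were higher and 5735 lower. After the correction, 942 of 14680 were higher and 1121 lower. Ddit3 encodes CHOP, a factor made when eIF2alpha is phosphorylated, and Atf4, which acts before it, was at -0.11 ± 0.10 (SE) per the authors' deposited table, not called.

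Adar had the smallest log2 fold change of the 7 higher genes, with an interval that overlaps that of Tlr3. It encodes ADAR1, which converts adenosine to inosine in double-stranded RNA and so weakens its recognition by MDA5 and PKR. On chromosome 3 from 89714469 to 89753455, it had an estimated 1661 normalized counts in Atg5-KD and 1012 in control, 1.64-fold apart (log2 fold change 0.71 ± 0.10 (SE) per the authors' deposited table, Wald adjusted p = 2.36e-11). ADAR1 is made as a constitutive and an interferon-inducible form from different starts, and a count per gene does not separate them. Its exons overlap those of Chrnb2 on the other strand over 1365 bases, 16.8% of their length, and the sources used here do not give the strandedness of the libraries. Chrnb2 had a base mean of 23.1 and a log2 fold change of -0.04 ± 0.42 (SE) per the authors' deposited table. Among 18 other genes of double-stranded RNA binding and small RNA production 2 were higher and 2 lower, Strbp at 0.59 and Zfr at 0.33 against Adarb1 at -0.45 and Stau1 at -0.30 per the authors' deposited table. Each share was 11.1%, close to the 10.4% higher and 10.5% lower of all tested genes. The list had 1 higher and 9 lower when scaled to all reads, with the call of Zfr lost. After correction for GC content and length 0 were higher and 4 lower, with the calls of both Strbp (adjusted p = 0.0816) and Zfr (adjusted p = 0.224) lost. Adarb1 encodes the related editing enzyme ADAR2, with 2051 normalized counts in Atg5-KD and 2794 in control. Dicer1 and Drosha, which cut hairpin RNAs, and Xpo5, which exports them, were not called, at 0.25 ± 0.13, -0.21 ± 0.12 and 0.07 ± 0.10 (SE) per the authors' deposited table.

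**Figure D4:**
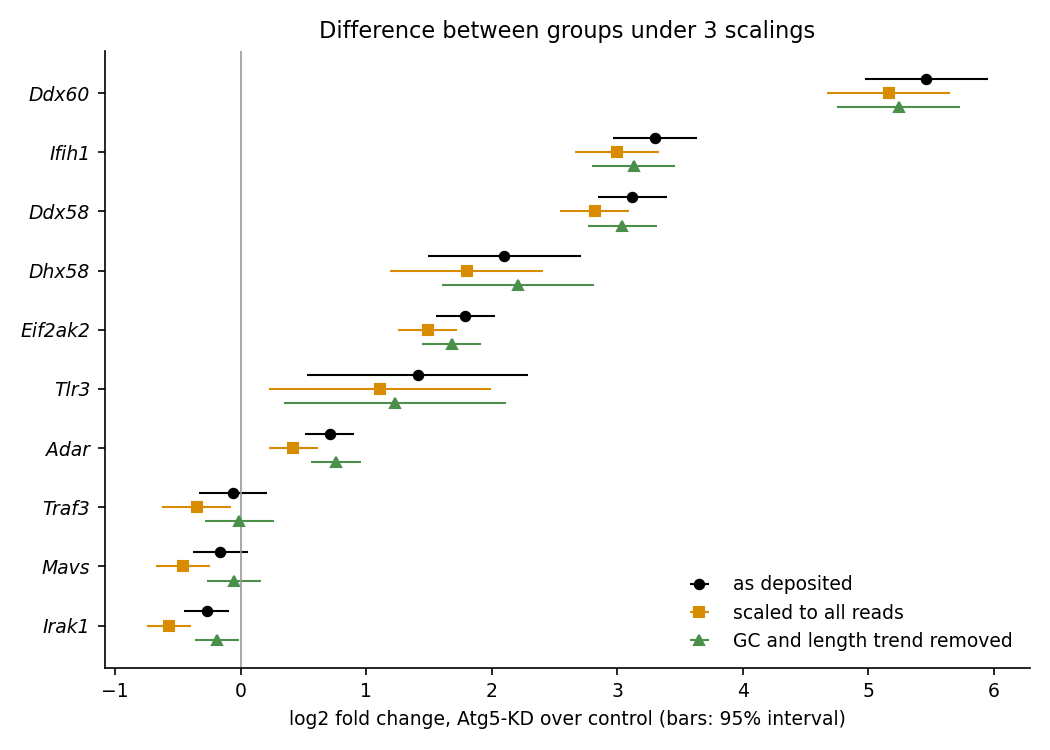
Log2 fold change of Atg5-KD over control with its 95% interval for the 10 genes, as deposited (black), scaled to all reads (orange) and corrected for GC content and length (green). The 7 higher genes stay above 0 under each, and Mavs, Traf3 and Irak1 lie at or below it.

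The adaptor genes did not follow the receptor genes. Mavs, on chromosome 2 from 131234063 to 131248025, had an estimated 549.5 normalized counts in Atg5-KD and 614 in control, with a log2 fold change of -0.16 ± 0.11 (SE) per the authors' deposited table (Wald adjusted p = 0.337). Its interval runs from -0.38 to 0.06, so a rise of more than 4.07% lies outside it. Traf3, a ubiquitin ligase that links MAVS and TRIF to TBK1, lies on chromosome 12 from 111166321 to 111267155. Its levels were 598 normalized counts in Atg5-KD and 621 in control, with -0.06 ± 0.14 (SE) per the authors' deposited table (Wald adjusted p = 0.842) and an interval from -0.33 to 0.22. On the scale of all reads, whose shift comes mostly from Rn45s, both were called lower. Mavs was at -0.46 (adjusted p = 0.000204, Wald statistics re-adjusted by Benjamini-Hochberg) and Traf3 at -0.35 (adjusted p = 0.0304, Wald statistics re-adjusted by Benjamini-Hochberg). The 7 higher genes were still called higher.

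Of 20 other genes of MAVS and TRIF signalling, 4 were higher and 0 lower (7 higher and 2 lower at an unadjusted Wald p under 0.05), with a median log2 fold change of 0.20. The higher share was 20.0%, against the 10.4% of all tested genes. Irf7, the interferon regulatory factor that is itself induced by interferon, stood apart at 5.39 ± 0.25 (SE) per the authors' deposited table, with an estimated 665 normalized counts in Atg5-KD and 15.8 in control. The other 3 were at 0.38 for Chuk, 0.31 for Tbk1 and 0.25 for Tomm70a per the authors' deposited table, which are an IkappaB kinase, the kinase of Irf3 and a mitochondrial import receptor that binds MAVS. Scaled to all reads these 3 were not called, Tomm70a was at -0.04, and 1 of the list was higher and 5 lower. After correction for GC content and length the calls of the 3 were lost as well, with adjusted p = 0.143 for Chuk, adjusted p = 0.142 for Tbk1 and adjusted p = 0.930 for Tomm70a, and Irf7 was the 1 higher gene beside 0 lower. Irf3, the factor that acts first in fibroblasts and many other cells, was not called at -0.10 ± 0.13 (SE), nor was Ticam1, which encodes TRIF, at -0.34 ± 0.15 (SE) per the authors' deposited table.

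Irak1 was the 1 lower gene. It encodes a kinase that acts after MyD88 on Toll-like and interleukin-1 receptors and lies on chromosome X from 74013914 to 74023921. Its estimated level was 1464 normalized counts in Atg5-KD and 1764 in control, 1.20-fold lower (log2 fold change -0.27 ± 0.09 (SE) per the authors' deposited table, Wald adjusted p = 0.0205). The share of lower genes, 1 of 10, is close to the 10.5% of all tested genes. The call was lost at an adjusted p threshold of 0.01 and after correction for GC content and length, at -0.19 (adjusted p = 0.170, Wald statistics re-adjusted by Benjamini-Hochberg). Among 20 other genes of the MyD88 branch 1 was higher, Tab3 at 0.43, and 2 were lower, Peli2 at -0.75 and Tab1 at -0.34 per the authors' deposited table. Tab3 at 0.25 (adjusted p = 0.221) and Tab1 at -0.13 (adjusted p = 0.587) also lost their calls after the correction for GC content and length, which left 0 higher and 1 lower. The list had 0 higher and 5 lower when scaled to all reads. Peli2 encodes a ubiquitin ligase that acts on IRAK kinases, while Tab1 and Tab3 bind the kinase TAK1. Myd88 had 233 normalized counts in Atg5-KD and 230.1 in control.

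Levels per length reordered between the groups. In Atg5-KD the order from high to low, in normalized counts per kilobase of exon, was Irak1 at 311, Eif2ak2 at 252, Adar at 205, Ddx58 at 171, Mavs at 164, Traf3 at 81.3, Ddx60 at 79.4, Ifih1 at 71.8, Dhx58 at 27.7 and Tlr3 at 5.89. In control it was Irak1 at 374, Mavs at 184, Adar at 125, Traf3 at 84.5, Eif2ak2 at 73.0, Ddx58 at 19.6, Ifih1 at 7.28, Dhx58 at 6.46, Tlr3 at 2.22 and Ddx60 at 1.80. These levels carry no error, so neighbours as close as Ddx58 and Mavs in Atg5-KD, or Ifih1 and Dhx58 or Tlr3 and Ddx60 in control, cannot be ranked. The 10 genes summed to 8164 normalized counts in Atg5-KD and 4631 in control, and Irak1, Adar, Mavs and Traf3 together made up 52.3% of that sum in Atg5-KD and 86.6% in control.

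Transcripts of proteins that assist the receptors, and of other RNA receptors, were higher in part. Of 19 tested cofactors and other RNA receptors 7 were higher and 0 lower (8 higher and 1 lower at an unadjusted Wald p under 0.05), 36.8% against the 10.4% of all tested genes, with a median log2 fold change of 0.09. In the authors' deposited table Zc3hav1, which encodes the antiviral zinc-finger protein ZAP, was at 1.12 ± 0.11 (SE) and Trim25, a ubiquitin ligase that activates RIG-I, at 0.96 ± 0.10 (SE). Ddx3x, a helicase that also takes part in translation, was at 0.61 ± 0.09 (SE), with an estimated 16218 normalized counts in Atg5-KD and 10663 in control, and Dhx36 at 0.51 ± 0.10 (SE) per the authors' deposited table. Scaled to all reads, 4 of this list were higher and 6 lower, and the call of Dhx36 was lost there and after correction for GC content and length.

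Among 19 tested genes of DNA sensing 7 were higher and 0 lower (8 higher and 1 lower at an unadjusted Wald p under 0.05), with a median of 0.11. The higher share was 36.8%, against the 10.4% of all tested genes. The 4 with the smallest adjusted p belong to a single family of related interferon-inducible genes. Their sequences were not compared here, and reads may be split between them, so each value is uncertain. They were Ifi204 at 2.47, Ifi203 at 2.88, Ifi205 at 4.37 and Mndal at 2.10 per the authors' deposited table. The DNA receptor cGAS and its adaptor STING, listed as Mb21d1 and Tmem173 and named after their values were seen, were not called, at 0.49 ± 0.41 (SE) and -0.17 ± 0.27 (SE) per the authors' deposited table. On the scale of all reads 4 of this list were higher and 4 lower.

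Genes of negative regulators of RNA sensing were higher in 5 of 22 tested cases and lower in 1, with a median of -0.08. That is 22.7% higher and 4.55% lower, against 10.4% and 10.5% of all tested genes. Nlrc5, better known as the activator of MHC class I genes, was at 1.99 ± 0.31 (SE), and the deubiquitinases Cyld at 0.54 ± 0.11 (SE) and Usp3 at 0.44 ± 0.10 (SE), with the ubiquitin ligase Itch at 0.35 ± 0.12 (SE), per the authors' deposited table. Atg5 and Atg12, listed because the conjugate of their products has been reported to restrain RIG-I and MAVS, were not called, nor were Atg7 and Atg16l1. Atg12 was at -0.12 ± 0.11 (SE) per the authors' deposited table. Scaled to all reads 1 of this list was higher and 11 lower, with the calls of Cyld, Usp3 and Itch lost, and that of Itch was lost after correction for GC content and length as well.

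The rise of the receptor helicases was set beside other helicases and beside another class of double-stranded RNA sensors. Of 35 DExD/H-box helicases with no sensing role in these lists, 1 was higher, Ddx24 at 0.45, and 2 were lower, Dhx32 at -0.27 and Ddx54 at -0.30 per the authors' deposited table, with a range of log2 fold changes from -0.30 to 0.45. Their shares were 2.86% higher and 5.71% lower, against 10.4% and 10.5% of all tested genes. Of these helicases 0 were higher and 17 lower when scaled to all reads, and after correction for GC content and length 0 were higher and 1 lower, with the calls of Ddx24, Dhx32 and Ddx54 lost. Ddx58, Ifih1, Dhx58 and Ddx60 all lay above the deposited range. OAS proteins make a messenger from ATP when they bind double-stranded RNA, and 8 of 9 tested genes of that list were higher and 0 lower (0 at an unadjusted Wald p under 0.05), with a median of 4.28. Among them Oasl2 was at 3.51 ± 0.16 (SE), Oasl1 at 4.98 ± 0.33 (SE), and Oas1b and Oas1a at 4.56 and 4.28 per the authors' deposited table. Oas1b and Oas1a are related genes whose sequences were not compared here. Reads may be split between them, so both values are uncertain. No test of a difference between these lists was made.

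**Figure D5:**
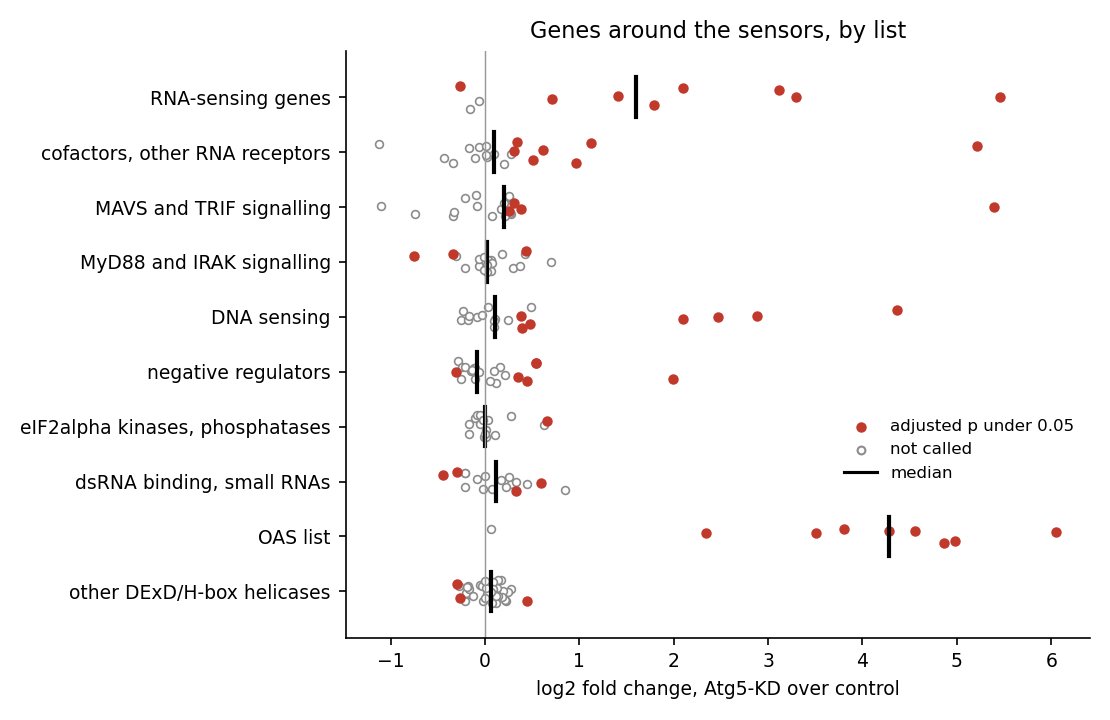
Log2 fold change of Atg5-KD over control for each tested gene of the RNA-sensing set and of the 9 lists around it, with called genes filled, others open and the median as a bar. The medians of the RNA-sensing genes and of the OAS list lie at 1.60 and 4.28 and those of the other lists between -0.08 and 0.20.

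Precision differed between the genes. The SE of Ddx60 was 0.25, against a median of 0.14 over the 200 tested genes nearest to it in base mean, while the SEs of Tlr3 and Dhx58, 0.45 and 0.31, were near the 0.46 and 0.29 of genes at their levels. For Irak1, Mavs and Adar the SEs of 0.09, 0.11 and 0.10 were no larger than the 0.11, 0.12 and 0.11 of their neighbours.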

How the data were processed

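RNA was measured by sequencing in 3 Atg5-KD and 3 control libraries. The submitters' processing notes name STAR, StringTie 2.1.4, featureCounts 1.6.2, DESeq2 1.30.1 and the build mm10, with no role or order, and the annotation and strandedness are not given in the sources used here. The base mean is a signal value, read counts over size factors, deposited by the authors with DESeq2's column names per the file headers. The log2 fold change and its SE were deposited by the authors on the log2 scale, the Wald statistic as a score, and the p-value and adjusted p-value as the authors computed them. Of 24982 rows, 14835 have an adjusted p. At a tolerance of 1e-06, 0 rows differed from a recomputed Wald statistic, p-value or Benjamini-Hochberg adjustment.

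Group means were computed from the base mean and fold change with 3 libraries per group, and depth from size factors read off rows that hold a single read (0.70 to 0.80 for Atg5-KD, 1.27 to 1.37 for control). These are estimates with no error. Exon lengths, GC content and overlaps came from GENCODE M21 (GRCm38, the assembly of mm10). Python 3.11.15, scipy 1.17.1 and statsmodels 0.14.6 were used, and the scripts were tested on simulated data.

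The genes and lists were chosen with earlier results of these data known. Named genes were the 10 genes, Atg5, up to 4 called genes of smallest adjusted p in each of 9 lists, the 2 of highest base mean in a list without a call or of markers, and others stated to be chosen after their values were seen or given to complete a pathway. A gene of the OAS list is counted there but not reported by name here. Alternatives were fixed for the adjustment, threshold, null, reference distribution, scaling, low values and the trend in gene properties. Of tested genes 99.0% had a GC content and a length.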

Additional observations from a re-analysis of the deposited data

How the results depend on the processing

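Of the 10 genes, 7 were higher and 1 lower as deposited. With a t distribution of 4 degrees of freedom in place of the normal, 0 were higher and 0 lower, as were 0 of all tested genes. That distribution has heavier tails, so even Ddx58 and Ifih1, at Wald statistics of 21.9 and 19.5, had adjusted p = 0.0554 with it. Because it called no gene at all, this setting does not set the 10 genes apart from the others. Against a null of at most 2-fold, 5 were higher and 0 lower, Tlr3 and Adar dropping out. Over all 14835 tested genes that null called 101 higher and 27 lower. At an adjusted p of 0.01, 6 were higher and 0 lower, beside 1026 higher and 1030 lower over all tested genes. Scaled to all reads, 7 were higher and 3 lower. Corrected for GC content and length, 7 were higher and 0 lower, and with a base mean of at least 50, which leaves out Tlr3, 6 and 1. Over all genes the correction called 942 higher and 1121 lower of 14680. The base mean limit called 1423 higher and 1505 lower of 11296. Adjusting over every row with a p-value or centring on the median left 7 and 1. Over the 178 tested genes of the 9 lists, 36 were higher and 7 lower as deposited. These counts became 10 and 0 against the 2-fold null, 0 and 0 with the t distribution, 20 and 68 scaled to all reads, and 29 and 3 at 0.01. Tomm70a turned to -0.04 scaled to all reads. That scaling called 534 of all tested genes higher and 5735 lower.

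No paired analysis was possible because the table holds no values per library, and a replicate block and leaving out each replicate were not run for that reason. Depth limits Tlr3 most, at an estimated 23.4 reads per Atg5-KD library and 15.3 per control library.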
